A study of Mus musculus with 21 samples.

Results

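The first half-day of erythropoietin-driven differentiation was examined in MEDEP cells (line BRC5), which are erythroid progenitors grown from embryonic stem cells of the mouse, by comparing 3 RNA-seq libraries at 12 h with 3 at 0 h. These 6 of the 21 libraries were chosen by their time labels alone. At 0 h the cells grew exponentially with stem cell factor (SCF) and the glucocorticoid dexamethasone. At 12 h both had been withdrawn and erythropoietin (Epo) had been present at 4 U/ml for 12 h, without succinyl acetone, an inhibitor of heme synthesis that was given to another 12 h group. The medium of both groups otherwise held serum, ascorbic acid, insulin-transferrin-selenium and alpha-thioglycerol. All libraries came from 1 line and from polyadenylated RNA, and 2 withdrawals and 1 addition coincided with the passage of 12 h, so their separate parts cannot be told apart. No 12 h group without Epo, or kept in growth medium, is among the 7 groups.

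Red cell progenitors respond to a small set of extracellular signals. SCF binds the receptor kinase Kit and acts largely through RAS and ERK, whose output includes its own inhibitors, the dual-specificity phosphatases and the SPRED and Sprouty proteins. Dexamethasone binds the glucocorticoid receptor, which together with Kit holds progenitors in self-renewal. Epo binds its receptor, which activates the kinase JAK2 and the transcription factor STAT5. STAT5 in turn induces survival genes and the SOCS family, which shuts the receptor off again. During maturation the GATA1, TAL1 and KLF1 complexes activate globin, heme and membrane genes, and GATA1 replaces GATA2 on shared sites.

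The 6 libraries held 23.83 to 37.14 M estimated counts each. Libraries of 1 time differed by more than sampling noise (chi-square per gene 6.22 to 13.7) and correlated at 0.995 to 0.997 across genes (Spearman), so each was counted as a replicate. The design text names biological replicates, and the labels do not say whether they were separate cultures. P-values rest on the spread between replicates, estimated in 1 model of all 21 libraries and not from these 6 alone. Mitochondrially encoded genes took 5.88 to 6.55% of counts at 0 h and 5.36 to 5.498% at 12 h. Globin genes took 0.0467 to 0.0752% and 1.20 to 1.40%. Summed over 12 genes that define the erythroid lineage, the level rose from 2581 to 2852 normalized counts-per-million (CPM) at 0 h to 12741 to 13059 CPM at 12 h, and all 12 were detected at both times. Marker sums for 6 other lineages (macrophage, neutrophil, eosinophil, lymphocyte, stromal and pluripotent) stayed at or below 2.57 CPM in every library. Lyz2 and C1qa of the macrophage list, Elane and S100a8 of the neutrophil list, Epx of the eosinophil list, Cd79b of the lymphocyte list and Sox2 of the pluripotent list had 0 counts at both times. Of the tested members of these lists, Trac of the lymphocyte list (3.96 ± 0.74) and Csf1r of the macrophage list (2.65 ± 0.42) were called higher at 12 h on the log2 scale and Cd3d of the lymphocyte list lower (-0.97 ± 0.34), each at a mean below 1 CPM. The call of Cd3d was lost without 0 h replicate 1 (-0.79), 12 h replicate 1 (-0.90) or 12 h replicate 3 (-0.68). Endothelial markers summed to 4.14 to 4.54 CPM at 0 h and 1.80 to 2.24 CPM at 12 h, and megakaryocyte markers to 17.8 to 22.6 and 20.3 to 22.5 CPM. Mast cell markers summed to 41.7 to 50.6 CPM at 0 h and 93.7 to 138.8 CPM at 12 h. The part of other cells in the results was not tested.

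At 12 h against 0 h 6539 of 12360 tested genes were called (52.9%), by edgeR's quasi-likelihood test with a Benjamini-Hochberg adjusted p of at most 0.05. Higher at 12 h were 3123 genes (25.3%) and lower 3416 (27.6%). The median size of a called change was 0.71 on the log2 scale, and 2193 called genes changed by at least 2-fold, 762 by at least 4-fold and 209 by at least 16-fold. Of 30 lists of pathways and families, the largest shares of rises were in globins (9 of 10 tested members), red cell membrane (31 of 37), heme synthesis and breakdown (20 of 27) and terminal maturation (21 of 29), read against 25.3% of all genes. The largest shares of falls were in glucocorticoid signaling (19 of 29), growth metabolism (24 of 37 genes of polyamine, one-carbon and nucleotide synthesis) and Kit and ERK feedback (20 of 35), read against 27.6%. Hbb-bh2, Hba-x and Hbq1a of the globins passed the count filter through groups other than 0 h alone, which favors rises. Each list's median log2 change is read against that over all tested genes, -0.0071. Calls were recomputed in limma on log2 values of length-scaled transcripts-per-million (TPM) with a pseudocount of 1 or 0.1 or over all genes above 0, in DESeq2, without single libraries, and with the replicate number fitted as a block in the 6 libraries (the replicate block), 15 alternatives in all beside a fold of at least 2. A call that one of these ended, or that the replicate block added, is given beside the gene or in the closing section. Apart from Cma1, Gzmb, Ikzf2, Jak2, Sh2b1 and mt-Co2, the genes described below as called with the block were also called in the 6 libraries without it. Max, Sh2b1, Sh2b3, Tcf3 and Tcf12 were called in DESeq2 as well, and Il5ra in TPM at a pseudocount of 1. In the next half-day, 24 h against 12 h, 41.1% of genes were called. That comparison shares the 12 h libraries, so its values are only set beside those of 12 h against 0 h.

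**Figure D1:**
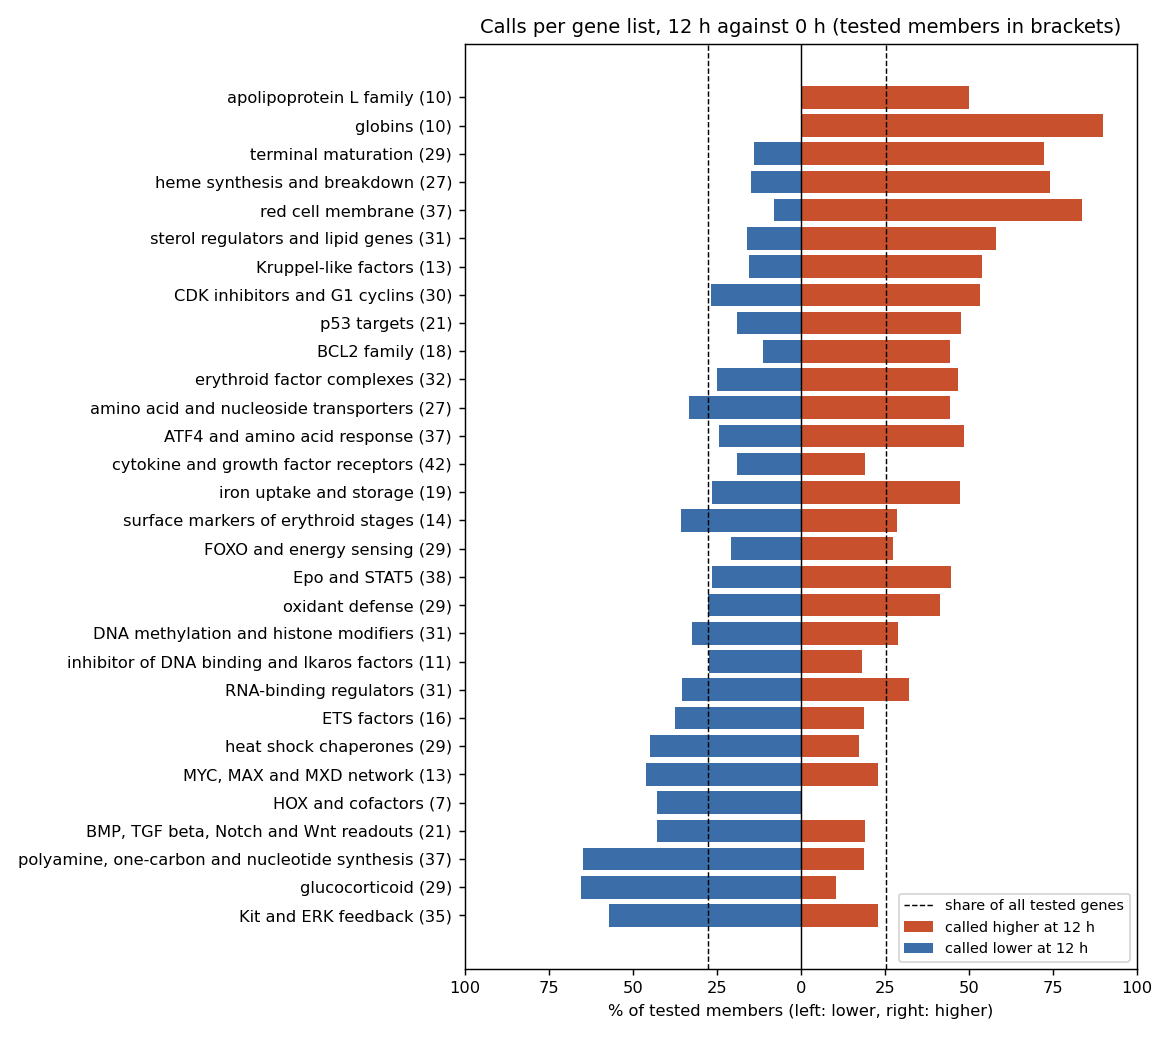
Share of tested members called higher (right) or lower (left) at 12 h in each of 30 gene lists, in percent, ordered by median log2 change, with the number of tested members in brackets. Dashed lines mark the shares over all tested genes, 25.3% higher and 27.6% lower. The bars of globins, red cell membrane and heme genes reach furthest to the right, and those of the glucocorticoid and the polyamine, one-carbon and nucleotide lists furthest to the left.

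Kit, the SCF receptor, fell, as did most of the tested ERK-induced factors and ERK inhibitors. In the whole list of 35 tested genes 20 fell and 8 rose (13 and 5 in TPM at pseudocount 0.1). Kit mRNA (ENSMUSG00000005672.12, GRCm38 chromosome 5, 75574916 to 75656722, plus strand) was measured at 976, 957 and 1025 CPM at 0 h and 104, 86.97 and 91.5 CPM at 12 h. The groups were far apart, with a log2 change of -3.39 ± 0.22, edgeR adjusted p = 5.17e-11. In bulk RNA a lower level from fewer expressing cells and from less RNA per cell cannot be told apart. Of the 9 tested receptor and adaptor genes 4 rose and 4 fell. Grb2, the adaptor that links the receptor to RAS, fell by a log2 change of -1.47 ± 0.08, and the RAS exchange factors Sos1 and Sos2 changed by -0.48 ± 0.082 and -0.49 ± 0.068. Rises were called for the scaffold Gab2 (1.36 ± 0.13), for Shc1 (0.62 ± 0.086), for Pik3r1 (0.61 ± 0.13), the regulatory subunit of PI3 kinase, and for Gab1 (0.55 ± 0.10, no call in TPM at pseudocount 0.1). Pik3cd was low and not called (-0.33 ± 0.43).

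Of 10 tested ERK phosphatases and inhibitors 6 fell and 2 rose, with a median of -0.996. Dusp6, a phosphatase that inactivates ERK and is itself induced by it, stood at 19.3, 18.2 and 19.6 CPM at 0 h and 0.581, 0.418 and 0.297 CPM at 12 h. Every 0 h library was above every 12 h library, with a log2 change of -5.41 ± 0.37, edgeR adjusted p = 1.4e-10. Spred2, an inhibitor of RAF activation, changed by -3.801 ± 0.12, Dusp2 by -3.92 ± 0.63, Spred1 by -1.26 ± 0.14, Dusp7 by -0.73 ± 0.15 (no call in TPM at pseudocount 0.1) and Rasa2, a RAS inactivator, by -0.55 ± 0.11 (not called in the same fit). The inhibitors that rose were Spred3 (1.44 ± 0.17) and Spry1 (0.74 ± 0.24). Spry2 (-1.78 ± 1.02) and Dusp5 (-0.47 ± 1.46) were near the detection limit and not called, but Spry2 was called lower with the replicate block (-1.64).

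Of 16 tested ERK-induced factors 10 fell and 2 rose, with a median of -1.77. Etv5, an ETS factor, was present at 37.8, 37.2 and 36.7 CPM at 0 h and 0.137, 0.242 and 0.173 CPM at 12 h. The groups did not overlap, and the log2 change was -7.66 ± 0.29, edgeR adjusted p = 1.73e-14. Etv4, its close relative, changed by -8.05 ± 0.64. Egr1, an immediate-early zinc finger factor, stood at 92.8, 115 and 153 CPM at 0 h and 9.64, 10.9 and 4.33 CPM at 12 h, and these groups did not overlap either (a log2 change of -3.85 ± 0.49, edgeR adjusted p = 1.13e-06). Egr2 was 27.1-fold lower (95% counting interval 8.94 to 133.9, from 82 counts against 3). Ccnd1, cyclin D1, fell by 4.09 and Myc by 1.90 on the log2 scale. Junb (-0.016 ± 0.14) and Fosb (0.17 ± 0.51), both AP-1 subunits, were not called, and Lif (1.75 ± 0.29) and Phlda1 (1.48 ± 0.25) rose from low levels. From 12 to 24 h Etv5 rose by 3.57 ± 0.35, Egr1 by 2.17 ± 0.47, Spred2 by 1.72 ± 0.12 and Dusp6 by 1.26 ± 0.41, whereas Kit changed by -1.601 ± 0.21 and Ccnd1 by -2.77 ± 0.67. The level of Etv5 at 24 h was 2.17 ± 0.768 CPM, still below its 0 h libraries.

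**Figure D2:**
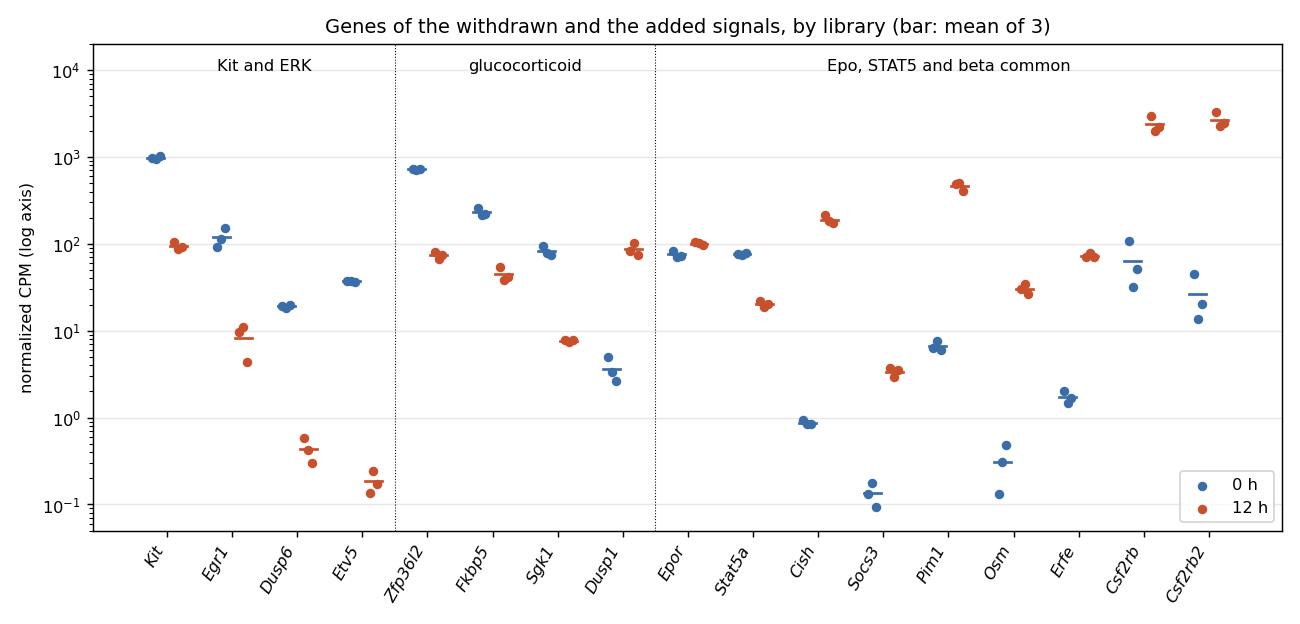
Normalized CPM on a log axis for 17 genes of the Kit and ERK, glucocorticoid and Epo groups; each point is a library, blue at 0 h and orange at 12 h, and bars are means of 3. Kit, Dusp6, Etv5, Zfp36l2 and Sgk1 have all 0 h points above all 12 h points, and Cish, Socs3, Pim1, Osm and both beta common chains have them below.

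The glucocorticoid receptor, its chaperones and most of its targets fell. Of 9 tested receptor and chaperone genes 6 fell and 1 rose, with a median of -0.43. Nr3c1, which encodes the receptor, fell (a log2 change of -0.64 ± 0.11, edgeR adjusted p = 5.81e-05). The chaperones that hold the unbound receptor followed, with Ptges3 at -0.66 ± 0.088, Hsp90ab1 at -0.49 ± 0.09 and Fkbp4 at -0.43 ± 0.11 (Hsp90aa1, at -0.41 ± 0.12, was not called in any TPM fit). The corepressor Ncor1 was called higher (0.21 ± 0.089) but lost the call in 12 of 15 alternatives, including the omission of any single library (0.19 to 0.24). Of 20 tested targets 13 fell and 2 rose, with a median of -1.18. Zfp36l2, an mRNA decay factor needed for self-renewal of erythroid progenitors, stood at 734, 704 and 734 CPM at 0 h and 80.2, 67.1 and 74.1 CPM at 12 h. All 0 h libraries exceeded all 12 h libraries, by a log2 change of -3.29 ± 0.15, edgeR adjusted p = 3.01e-13. Sgk1, a kinase used as a readout of the receptor, stood at 94.5, 77.5 and 74.1 CPM at 0 h and 7.75, 7.46 and 7.92 CPM at 12 h, also without overlap (a log2 change of -3.41 ± 0.13, edgeR adjusted p = 9.43e-15). Fkbp5, a chaperone that restrains the receptor, was at 260.0, 215 and 221 CPM at 0 h and 53.8, 38.1 and 41.7 CPM at 12 h (a log2 change of -2.38 ± 0.17, edgeR adjusted p = 2.48e-10). Per1 changed by -2.61 ± 0.11, Zbtb16 by -2.42 ± 0.17, Klf9 by -1.28 ± 0.16, Angptl4 by -2.68 ± 0.29 and the metallothionein Mt1 by -1.47 ± 0.19. The targets that rose were Dusp1, a phosphatase, and Irs2, an insulin receptor substrate. Dusp1 stood at 4.98, 3.33 and 2.61 CPM at 0 h and 83.2, 103 and 75.4 CPM at 12 h (a log2 change of 4.58 ± 0.20, edgeR adjusted p = 1.48e-13), all 12 h libraries above all 0 h libraries, and Irs2 changed by 3.02 ± 0.13. Neither Per1, Zbtb16, Fkbp5, Klf9 nor Mt1 was called at 24 h against 12 h, while Sgk1 changed by -1.17 ± 0.13.

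Epo targets and several feedback genes rose, while 5 of 9 receptor and transducer genes fell, with a median of -0.54. Over all 38 tested genes of the list the median was 0.013, close to that of all tested genes. Epor, the receptor, stood at 83.4, 70.99 and 73.3 CPM at 0 h and 104, 101 and 97.3 CPM at 12 h, with every 12 h library above every 0 h library, and its call (a log2 change of 0.41 ± 0.10, edgeR adjusted p = 0.00152) was lost in the TPM fits. The falls included Stat5a at 76.4, 74.3 and 78.1 CPM at 0 h and 22.2, 18.6 and 20.4 CPM at 12 h (a log2 change of -1.902 ± 0.10, edgeR adjusted p = 4.8e-12), Stat5b (-1.11 ± 0.081) and the kinase Lyn (-1.22 ± 0.12). Jak2 (-0.15 ± 0.12) and Vav1 (-0.08 ± 0.11) were not called, though Jak2 was with the replicate block (-0.12). Among 14 feedback genes 5 rose, 3 fell and 6 were not called, with a median of -0.080. Cish (ENSMUSG00000032578.7, GRCm38 chromosome 9, 107296026 to 107302784, plus strand) was measured at 0.935, 0.838 and 0.833 CPM at 0 h and 216, 182 and 173 CPM at 12 h. No library of one time came near the other, and the log2 change was 7.77 ± 0.20, edgeR adjusted p = 7.74e-17. Socs3 was at 0.134, 0.178 and 0.0926 CPM at 0 h and 3.71, 2.93 and 3.49 CPM at 12 h (a log2 change of 4.66 ± 0.24, edgeR adjusted p = 1.63e-12), Socs1 changed by 4.48 ± 0.49, Socs2 by 2.34 ± 0.16 and the phosphatase Ptpn6 by 0.66 ± 0.14. Of the other feedback genes, the ubiquitin ligase Cbl (-1.01 ± 0.12), the SOCS-box gene Spsb1 (-3.52 ± 0.41) and Socs7 (-0.29 ± 0.074, no call in TPM at pseudocount 0.1) fell. The adaptor Sh2b3 (-0.24 ± 0.11), Ptpn11 (-0.30 ± 0.16) and Inpp5d (-0.042 ± 0.13) were not called, but the replicate block called Sh2b3 (-0.20) and Ptpn11 (-0.26) lower, and Sh2b3 was also called without 12 h replicate 1 (-0.33).

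Among 15 tested Epo and STAT5 targets 11 rose and 2 fell, with a median of 2.23. Osm, a cytokine induced by STAT5, went from near the detection limit to a clear level, at 0.134, 0.305 and 0.481 CPM at 0 h and 30.3, 34.4 and 26.6 CPM at 12 h. Its log2 change was 6.61 ± 0.24, edgeR adjusted p = 7.62e-15. Pim1, a survival kinase, stood at 6.36, 7.64 and 6.0 CPM at 0 h and 494, 504 and 401 CPM at 12 h (a log2 change of 6.13 ± 0.18, edgeR adjusted p = 2.86e-16). Both genes had all 12 h libraries well above all 0 h libraries. Erfe, erythroferrone, the hormone that suppresses hepcidin, was at 2.04, 1.47 and 1.704 CPM at 0 h and 70.8, 79.03 and 70.3 CPM at 12 h (a log2 change of 5.38 ± 0.23, edgeR adjusted p = 7.41e-14). Trib3 (3.68 ± 0.45), Podxl (3.08 ± 0.17), a sialomucin of the cell surface, Gadd45a (2.97 ± 0.14) and the blood group protease Kel (2.23 ± 0.14) also rose. The survival gene Bcl2l1 changed by 0.86 ± 0.14, less than any of these, and by 1.71 ± 0.14 in the next half-day.

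RefSeq windows of 250 bases before to 50 after the start site (GRCm38.p6) were searched for the STAT motif TTCNNNGAA, which reads the same on both strands. It occurred in 8.30% of all 32851 windows, in 7.30% of windows of tested genes, in 7.92% of windows of genes called higher by at least 2-fold and in 6.80% of those called lower by at least 2-fold. Among searched genes of the Epo and receptor lists it was found in Cish, Socs3 and Csf2rb2, which are shown here because they hold a match. These letters were not in the windows of Pim1, Socs1, Erfe, Bcl2l1, Kel and Trib3. Not every gene has a window, and Osm, Socs2, Csf2rb and Podxl are without a result here. The sequences run 5′ to 3′ on the gene's strand, with the motif in capitals. They cover the 200 bases before the start, and for Cish also the first 20 bases after it, since its 2 matches begin at bases 1 and 12 of the transcript.
Cish, chr9:107296459-107296678, plus strand: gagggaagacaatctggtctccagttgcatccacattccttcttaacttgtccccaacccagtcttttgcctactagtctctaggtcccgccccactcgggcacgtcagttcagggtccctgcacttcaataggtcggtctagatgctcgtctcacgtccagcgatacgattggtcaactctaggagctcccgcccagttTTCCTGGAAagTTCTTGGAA
Socs3, chr11:117969367-117969566, minus strand: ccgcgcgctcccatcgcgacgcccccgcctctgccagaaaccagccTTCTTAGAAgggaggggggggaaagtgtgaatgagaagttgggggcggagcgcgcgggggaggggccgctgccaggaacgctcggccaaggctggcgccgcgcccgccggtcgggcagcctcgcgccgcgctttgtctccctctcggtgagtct
Csf2rb2, chr15:78305722-78305921, minus strand: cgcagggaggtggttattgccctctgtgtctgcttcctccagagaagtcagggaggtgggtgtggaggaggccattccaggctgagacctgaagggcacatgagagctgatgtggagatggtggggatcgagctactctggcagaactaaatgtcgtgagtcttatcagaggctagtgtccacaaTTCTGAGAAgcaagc
The Socs3 match begins 154 bases and the Csf2rb2 match 15 bases before the start. A match is a description of letters, and binding was not measured.

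Of 42 tested receptor genes for cytokines and growth factors 8 rose and 8 fell, both below the shares over all tested genes (25.3% and 27.6%). Csf2rb2 had the largest rise. Csf2rb, shared by the receptors for IL-3, IL-5 and GM-CSF, stood at 108, 31.7 and 51.5 CPM at 0 h and 2929.8, 2005 and 2223 CPM at 12 h. Its paralog Csf2rb2, which serves IL-3 alone, stood at 45.2, 13.8 and 20.3 CPM at 0 h and 3317, 2265 and 2475 CPM at 12 h. In both genes 0 h replicate 1 was the highest of its group, and the groups did not overlap. Csf2rb showed a log2 change of 5.22 ± 0.32, edgeR adjusted p = 2.5e-11, and Csf2rb2 a log2 change of 6.66 ± 0.34, edgeR adjusted p = 1.62e-12. The sequences of the pair are alike and reads could be split between them, so they were also summed: the sum went from 45.4 to 153 CPM at 0 h to 4271 to 6248 CPM at 12 h, by 5.81 ± 0.33. Csf2ra, the GM-CSF partner, changed by 0.94 ± 0.18, Il5ra was not called (0.58 ± 0.34, but called with the replicate block at 0.63), and Il3ra did not pass the count filter. Of 21 tested other type I and II chains 2 rose and 4 fell, with the IL-4 receptor Il4ra at 2.395 ± 0.35, Lifr at -2.36 ± 0.16 and Ifngr1 at -2.096 ± 0.20. Of 4 tested receptor kinases Igf1r fell (-0.81 ± 0.15), and Csf1r rose from a very low level (2.65 ± 0.42) to below 1 CPM. In the TNF, IL-1 and TGF beta families 2 of 13 rose, Tnfrsf13c, the BAFF receptor, at 0.229, 0.330 and 0.222 CPM at 0 h and 10.2, 10.04 and 12.4 CPM at 12 h (a log2 change of 5.39 ± 0.41, edgeR adjusted p = 5.58e-10) and Il1r1 (1.105 ± 0.12). Bmpr2 (-1.13 ± 0.11) and Acvr2a (-0.97 ± 0.17) were among the 3 that fell. All 66 receptor genes on the list took 0.0489 ± 0.0045% of TPM at 0 h and 0.270 ± 0.048% at 12 h (SD, n = 3 each). This share includes Csf2rb and Csf2rb2, whose summed CPM rose by 5.81 on the log2 scale. It does not describe most members, as 26 of the 42 tested genes were not called.

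Among 32 genes of the GATA1, TAL1 and KLF1 complexes and other regulators, such as Myb, Sox6, Rb1 and Nr4a1, 15 rose and 8 fell. With the replicate number fitted as a block in the 6 libraries alone 14 fell, and in these without the block 13. In TPM at pseudocount 0.1 the falls were 5. The median was 0.31. Gata2, which acts in earlier progenitors, stood at 47.6, 48.8 and 57.8 CPM at 0 h and 6.702, 6.38 and 8.12 CPM at 12 h and fell. Gata1, its successor in maturation, stood at 129, 117 and 116 CPM at 0 h and 299, 282 and 268 CPM at 12 h and rose. Neither gene's groups overlapped, with a log2 change of -2.87 ± 0.17, edgeR adjusted p = 1.55e-11, for Gata2 and a log2 change of 1.23 ± 0.082, edgeR adjusted p = 9.86e-11, for Gata1. Tal1, the helix-loop-helix partner of the GATA factors, stood at 116, 103 and 106 CPM at 0 h and 733, 682 and 696 CPM at 12 h (a log2 change of 2.698 ± 0.087, edgeR adjusted p = 1.33e-15), Zfpm1, the GATA1 cofactor FOG1, changed by 1.96 ± 0.17, and the bridging factor Ldb1 by 0.41 ± 0.11 (not called in the TPM fits). Lmo2, which connects Tal1 to Ldb1, was not called, but was called lower with the replicate block (-0.25 ± 0.13, and -0.21 with it). The E proteins that pair with Tal1, Tcf3 (-0.24 ± 0.11) and Tcf12 (-0.18 ± 0.083), were not called, but were called lower in DESeq2 (-0.28 and -0.22) and with the replicate block (-0.21 and -0.14), and Tcf3 also without 12 h replicate 1 (-0.32). Lyl1, a paralog of Tal1, fell by 1.76 and was 2.58 ± 0.11 higher at 24 h. Sox6 (3.16 ± 0.14), Nfe2 (2.35 ± 0.082) and the retinoblastoma gene Rb1 (2.22 ± 0.10) also rose. Myb, which maintains progenitors, stood at 374, 361 and 384 CPM at 0 h and 28.5, 23.5 and 26.3 CPM at 12 h, without overlap (a log2 change of -3.84 ± 0.21, edgeR adjusted p = 4.9e-12). Ikzf1 (-1.15 ± 0.12), Nfe2l2 (-0.58 ± 0.091) and Kdm1a (-0.32 ± 0.071, not called in 2 TPM fits) also fell. The fetal globin repressor Zbtb7a rose (0.72 ± 0.079).

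**Figure D3:**
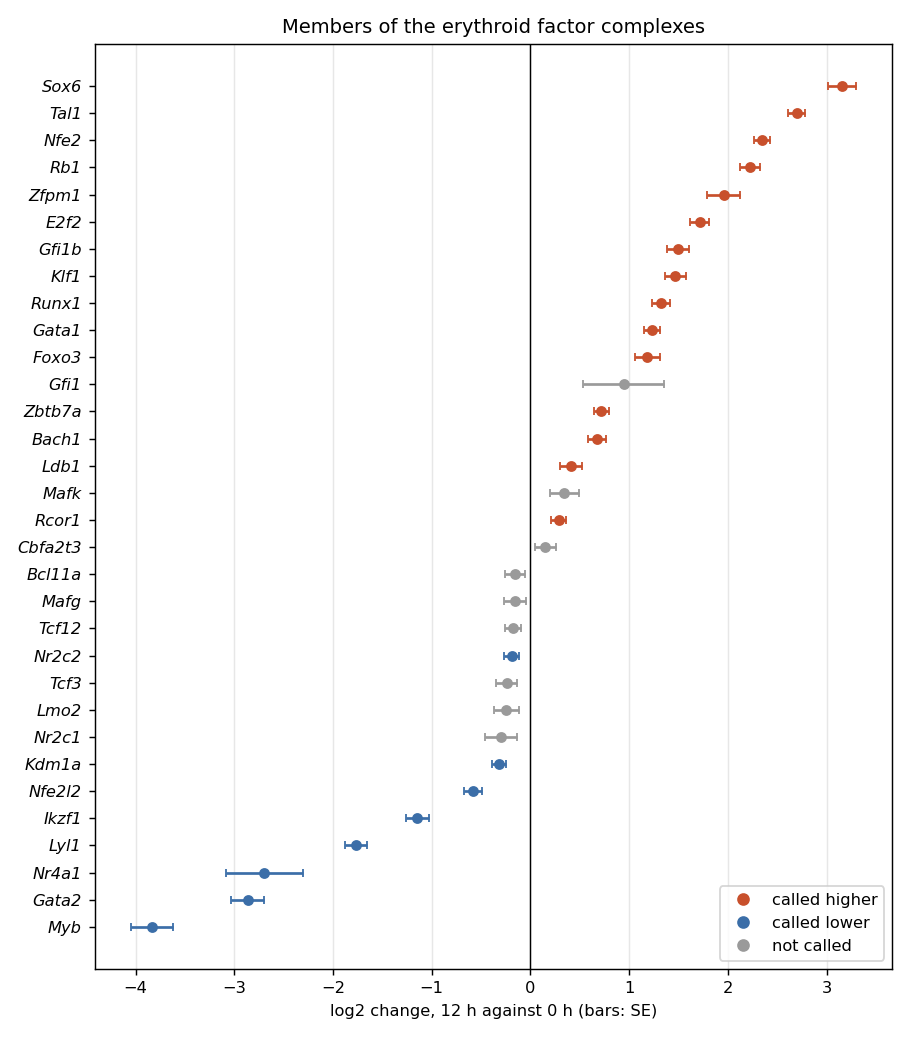
Log2 change at 12 h against 0 h, with SE, for 32 genes of the erythroid factor complexes and other regulators, orange where called higher, blue where called lower and grey where not called. Sox6, Tal1 and Nfe2 lie at the top with changes above 2, and Nr4a1, Gata2 and Myb at the bottom with changes below -2.

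Among other factor families, 3 of 16 tested ETS factors outside the ERK list rose and 6 fell, near the shares over all tested genes (25.3% and 27.6%), with a median of -0.16. Ehf, an epithelial ETS factor, stood at 0.191, 0.127 and 0.407 CPM at 0 h and 9.78, 14.9 and 18.9 CPM at 12 h (a log2 change of 5.83 ± 0.46, edgeR adjusted p = 9.95e-10) and changed by -2.94 ± 0.36 in the next half-day. Spi1, the myeloid factor PU.1, an antagonist of GATA1, rose by 1.68 ± 0.12, and Ets1 fell by 2.02. Elk1, called higher at 0.35 ± 0.14, lost the call in 10 of 15 alternatives, including the omission of any single library (0.32 to 0.38). Among 13 Kruppel-like and SP factors 7 rose and 2 fell, with Klf11 (1.37 ± 0.11), Klf3 (1.23 ± 0.12) and Sp2 (1.02 ± 0.088) rising and Klf2 (-2.63 ± 0.50) and Sp4 (-1.48 ± 0.079) falling. Of 28 listed HOX genes and cofactors 7 passed the count filter, none rose, and Hhex (-4.19 ± 0.47), Hoxc6 (-0.76 ± 0.20) and Hoxc4 (-0.45 ± 0.087, no call in TPM at pseudocount 0.1) fell.

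In the MYC network Myc stood at 185, 177 and 191 CPM at 0 h and 51.8, 39.8 and 56.1 CPM at 12 h, without overlap (a log2 change of -1.904 ± 0.20, edgeR adjusted p = 6.15e-08). Its obligate partner Max was not called (-0.19 ± 0.091, but called lower with the replicate block at -0.15). The MAX-binding repressors Mxd1 (1.36 ± 0.14), Mxd3 (1.38 ± 0.18) and Mxi1 (0.97 ± 0.15) rose, whereas Mnt (-0.69 ± 0.18) and Mga (-0.88 ± 0.10) fell. Tfap4, a helix-loop-helix gene induced by MYC, fell by 3.09. Among 11 tested ID, Ikaros and related factors 2 rose and 3 fell, also near those shares, with Neurog2 (-5.599 ± 0.32) and Id3 (-2.97 ± 0.76) falling and Ikzf4 (4.13 ± 0.42) rising. Id2 (-0.72 ± 0.29) lost its call in 6 of 15 alternatives, including the omission of any library but 0 h replicate 2 (-0.54 to -0.76). The E-box CACGTG, a palindrome bound by MYC and MAX, was in 12.8% of windows of genes called lower by at least 2-fold, 7.92% of those called higher by at least 2-fold and 9.63% of those of tested genes. In the 250 bases before the start alone these shares were 8.97, 6.89 and 8.03%. Over all windows, at full length, the share was 7.15%. The E-box was not in the windows of Cad, Odc1, Shmt1, Gart and Ppat, the genes of polyamine, one-carbon and nucleotide synthesis searched for it.

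Most heme synthesis genes rose. Of 9 synthesis genes 8 rose and 1 fell (median 2.10). The first step has 2 paralogs. Alas2, the erythroid form (chromosome X, plus strand), stood at 19.6, 18.2 and 16.1 TPM at 0 h and 425, 409.8 and 438 TPM at 12 h and rose (a log2 change of 4.596 ± 0.17, edgeR adjusted p = 1.35e-14). Alas1, the form used in other tissues, stood at 12.1, 13.6 and 14.5 TPM at 0 h and 8.83, 8.64 and 8.86 TPM at 12 h, and its fall (a log2 change of -0.70 ± 0.13, edgeR adjusted p = 0.000133) was not called in TPM at pseudocount 0.1. Both paralogs were low at 0 h, and at 12 h every library held far more Alas2 than Alas1. Of the later enzymes, Uros (2.95 ± 0.076), Alad (2.53 ± 0.15) and Cpox (2.32 ± 0.17) rose most. Ppox changed by 2.06 ± 0.12. Fech, which inserts iron, changed by 1.78 ± 0.12, and Urod, with the smallest rise, by 1.53 ± 0.10.

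Of 18 genes of cofactor supply and heme breakdown or export 12 rose and 3 fell. The ABC transporters Abcb10 (2.83 ± 0.07) and Abcg2 (2.49 ± 0.11) and the mitochondrial carrier Slc25a38 (1.48 ± 0.12), which brings in glycine, rose. Hmox1, the inducible heme oxygenase, rose by 1.37 ± 0.30. The heme exporter Flvcr1 changed by -1.52 ± 0.10. The 28 genes of the list took 0.273 ± 0.0035% of TPM at 0 h and 0.907 ± 0.019% at 12 h (SD, n = 3 each).

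Iron uptake and storage changed in both directions. Of 19 tested genes 9 rose, read against 25.3% of all tested genes, and 5 fell, near the 27.6% of all tested genes. Tfrc, the transferrin receptor, stood at 302, 317 and 299.96 TPM at 0 h and 1535, 1602 and 1639 TPM at 12 h (a log2 change of 2.43 ± 0.14, edgeR adjusted p = 6.35e-12), and Slc25a37, mitoferrin-1, at 36.2, 30.8 and 32.9 TPM at 0 h and 748, 903 and 876 TPM at 12 h (a log2 change of 4.68 ± 0.24, edgeR adjusted p = 1.96e-12). Neither gene's groups overlapped. The ferritin chains Fth1 (1.200 ± 0.13) and Ftl1 (1.16 ± 0.16) rose as well. Falls were called for the iron exporter Slc40a1 (-1.003 ± 0.12), the iron sensor Aco1 (-1.04 ± 0.091), Fbxl5 (-0.91 ± 0.11), Slc25a28, mitoferrin-2 (-0.88 ± 0.11), and the second transferrin receptor Tfr2 (-0.78 ± 0.12).

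Of 10 tested globin genes 9 rose, with a median of 3.75, and of 3.49 with Hbb-bh2, which had 0 counts at 0 h, at its bound. Hbb-bh2, Hba-x and Hbq1a had 3 or fewer counts summed over the 0 h libraries. They passed the count filter through other groups alone, which favors rises and a high median. The adult alpha gene Hba-a1 stood at 582, 437 and 336 TPM at 0 h and 14370.0, 11764 and 12188 TPM at 12 h (a log2 change of 4.77 ± 0.41, edgeR adjusted p = 4.37e-09) and Hba-a2 at 502, 558 and 376 TPM at 0 h and 5989.5, 5676 and 5975 TPM at 12 h (3.52 ± 0.33). The adult beta genes stood at 227, 246 and 187 TPM at 0 h and 9500.3, 7989.5 and 8413 TPM at 12 h for Hbb-bt (5.28 ± 0.25) and at 282, 792 and 364 TPM at 0 h and 8192, 7446 and 7282 TPM at 12 h for Hbb-bs (3.97 ± 0.30). Hbb-bs at 0 h replicate 2 was far above the other 0 h libraries, and all 12 h libraries lay above it. These paralogs are nearly identical, so single values depend on how reads were divided. Among embryonic genes Hbb-bh1 stood at 0.115, 0.102 and 0.0556 CPM at 0 h and 12.1, 13.8 and 13.7 CPM at 12 h (a log2 change of 7.15 ± 0.79, edgeR adjusted p = 1.65e-07), and Hbb-y (3.02 ± 0.52) and Hba-x (3.46 ± 0.99) rose from near 0. Hba-x was not called in TPM over all genes above 0. Hbq1b, a theta gene, rose as well (2.86 ± 0.54), and its neighbor Hbq1a was at the detection limit and not called (0.89 ± 1.25). The listed globins took 0.163 ± 0.039% of TPM at 0 h and 3.502 ± 0.27% at 12 h (SD, n = 3 each).

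**Figure D4:**
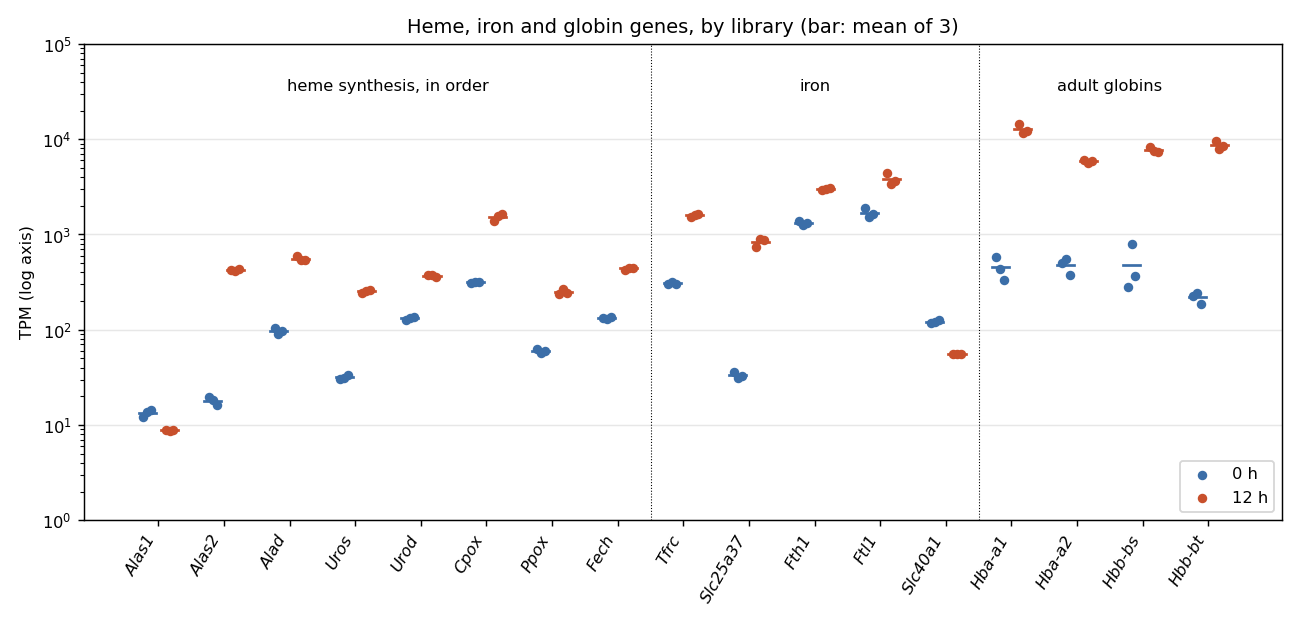
TPM on a log axis for 8 heme synthesis enzymes in pathway order, 5 iron genes and 4 adult globins; each point is a library, blue at 0 h and orange at 12 h, and bars are means of 3. Orange lies above blue for every gene shown except Alas1 and the exporter Slc40a1.

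The start-site windows were also searched for the GATA motif GATAA on either strand (TTATC on the other), which was in 25.4% of all windows, 18.2% of those of tested genes, 21.9% of those called higher by at least 2-fold and 18.6% of those called lower by at least 2-fold. The 200 bases before the start of Alas2, Klf1 and Hba-a1 are shown as the first heme enzyme, a factor of the erythroid complexes and the globin with the largest gain in TPM, each with 1 match in capitals.
Alas2, chrX:150547217-150547416, plus strand: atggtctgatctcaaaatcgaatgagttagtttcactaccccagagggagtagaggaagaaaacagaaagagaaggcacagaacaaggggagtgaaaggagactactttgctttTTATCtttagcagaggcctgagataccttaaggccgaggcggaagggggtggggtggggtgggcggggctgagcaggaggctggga
Klf1, chr8:84901782-84901981, plus strand: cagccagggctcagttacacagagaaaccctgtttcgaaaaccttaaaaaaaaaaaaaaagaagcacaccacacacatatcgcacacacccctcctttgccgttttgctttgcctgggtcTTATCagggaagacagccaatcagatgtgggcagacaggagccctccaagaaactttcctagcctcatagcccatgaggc
Hba-a1, chr11:32283472-32283671, plus strand: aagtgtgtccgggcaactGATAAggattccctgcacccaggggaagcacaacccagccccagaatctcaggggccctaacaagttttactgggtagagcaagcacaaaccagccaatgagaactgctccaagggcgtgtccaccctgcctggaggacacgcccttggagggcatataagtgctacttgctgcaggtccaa
The matches begin 86, 80 and 182 bases before the start. Klf1 itself stood at 84.1, 77.8 and 79.6 CPM at 0 h and 238, 207 and 223 CPM at 12 h (a log2 change of 1.47 ± 0.11, edgeR adjusted p = 2.78e-10).

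Most membrane genes rose. Of 20 genes of the spectrin skeleton and band 3 complex 16 rose and 2 fell, with a median of 1.10. Slc4a1, the anion exchanger band 3, stood at 5.63, 6.94 and 6.31 TPM at 0 h and 859.9, 1081 and 1029.7 TPM at 12 h (a log2 change of 7.33 ± 0.19, edgeR adjusted p = 7.74e-17), without overlap. Dmtn, which bundles actin (3.796 ± 0.11), Epb42, which binds band 3 (2.89 ± 0.10), and Mpp1 (2.72 ± 0.15) followed, and the spectrin Sptb changed by 1.91 ± 0.12. Add3 fell (-1.26 ± 0.09) while the other adducins, Add1 (1.03 ± 0.09) and Add2 (1.28 ± 0.12), rose. Tpm3 (-0.28 ± 0.083) and Ermap (0.50 ± 0.081) were not called in the TPM fits. Of 17 Rh, glycophorin and blood group genes 15 rose and 1 fell, Cd55 (-0.43 ± 0.10, no call in TPM at pseudocount 0.1). The Duffy receptor Ackr1 (4.57 ± 0.22) and Art4 (3.36 ± 0.26) rose from near 0, and Rhag was not called (-0.23 ± 0.12, but called lower with the replicate block at -0.19). The 37 membrane genes took 0.532 ± 0.011% of TPM at 0 h and 1.09 ± 0.015% at 12 h (SD, n = 3 each).

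Of 14 tested genes for surface proteins used to stage erythroid cells 4 rose and 5 fell, near the shares over all tested genes (25.3% and 27.6%). Cd24a stood at 1140.4, 1020.0 and 1104 TPM at 0 h and 3997, 4009 and 4259 TPM at 12 h (a log2 change of 1.93 ± 0.089, edgeR adjusted p = 3.09e-13), while Cd44, which declines through erythroid stages, stood at 50.4, 53.9 and 53.1 TPM at 0 h and 40.7, 33.8 and 36.4 TPM at 12 h (a log2 change of -0.44 ± 0.13, edgeR adjusted p = 0.00598), and in both genes the groups did not overlap. Cd44 was without a call in TPM at pseudocount 0.1. Spn (-1.59 ± 0.13) and Cd81 (-1.46 ± 0.12) fell further. Itgb3 (4.04 ± 0.72, not called in TPM over all genes above 0) and Itga2b (-0.69 ± 0.16), which pair as the platelet fibrinogen receptor, moved in opposite directions. Cd36 went from 1 count to 204, which is 206 times as many (95% counting interval 36.6 to 8178). Of 29 tested genes of terminal maturation 21 rose and 4 fell, with a median of 1.49. Hemgn, a GATA1-regulated nuclear protein, had the largest rise, at 2.73, 3.15 and 3.07 CPM at 0 h and 60.6, 79.2 and 82.1 CPM at 12 h (a log2 change of 4.63 ± 0.29, edgeR adjusted p = 3.99e-11). The mitophagy receptor Bnip3l changed by 2.01 ± 0.13 and Foxo3 by 1.19 ± 0.13. Trim58, a ubiquitin ligase of the enucleation step, fell by 1.39 and was 0.84 ± 0.18 higher at 24 h. Kmt5a (-0.41 ± 0.092), a histone methyltransferase of condensing nuclei, and Optn (-0.40 ± 0.12) were called lower but not in the TPM fits.

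Of 30 genes of G1 control 16 rose and 8 fell (3 in TPM at pseudocount 0.1), with a median of 0.46. The D cyclins parted: Ccnd1 stood at 6.74, 9.88 and 9.48 CPM at 0 h and 0.479, 0.528 and 0.520 CPM at 12 h, Ccnd3 at 86.8, 78.4 and 83.3 CPM at 0 h and 542, 559 and 534 CPM at 12 h, and Ccnd2 changed by 0.67 ± 0.15 (not called in 2 TPM fits). Ccnd1 fell (a log2 change of -4.09 ± 0.42, edgeR adjusted p = 6.92e-08) and Ccnd3 rose (a log2 change of 2.72 ± 0.12, edgeR adjusted p = 1.92e-13), both without overlap. The phosphatase Cdc25b rose by 2.89 ± 0.14, and of the CDK inhibitors Cdkn2b (1.81 ± 0.27), Cdkn2c (1.03 ± 0.10) and Cdkn1b (0.61 ± 0.12) rose while Cdkn1c (-1.32 ± 0.36) fell. Cdkn1a, another of them, was called higher as well (2.07, not called in TPM over all genes above 0). Cdk4 (-0.74 ± 0.21) and Cdk6 (-0.56 ± 0.13) fell, each not called in 1 TPM fit. In the BCL2 family 8 of 18 tested members rose and 2 fell: Bcl2, a death inhibitor (-1.77 ± 0.16), and Bcl2l11, the death inducer BIM (-1.28 ± 0.19). Bnip3 (2.81 ± 0.59), Bnip3l and Bik (1.49 ± 0.23) rose most. Of 21 p53 genes 10 rose and 4 fell, with Trp53inp1 (2.13 ± 0.14) and Btg2 (2.03 ± 0.10) among the highest and Trp53 itself lower (-0.79 ± 0.14).

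Growth metabolism fell more often than it rose. Of 37 genes of polyamine, one-carbon and nucleotide synthesis 24 fell and 7 rose, with a median of -0.52, and 3 rose in each TPM fit. Gart, of purine synthesis, stood at 145, 143 and 141 TPM at 0 h and 45.2, 39.1 and 37.7 TPM at 12 h (a log2 change of -1.69 ± 0.14, edgeR adjusted p = 1.96e-09), without overlap. Dhodh (-1.597 ± 0.13) and Cad (-1.48 ± 0.15), of pyrimidine synthesis, and Shmt1 (-1.56 ± 0.15), of one-carbon transfer, fell alongside. The ribonucleotide reductase subunit Rrm2 rose (0.88 ± 0.21), and Odc1 (0.57 ± 0.13), of polyamine synthesis, was not called in the TPM fits. Despite the falls the list's share of TPM went from 0.847 ± 0.0070% to 0.919 ± 0.011%, and Odc1 alone stood at 2606, 2648 and 2590.3 TPM at 0 h and 3837, 3705 and 3763 TPM at 12 h.

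Of 37 tested genes of the ATF4 and amino acid response 18 rose and 9 fell, with a median of 0.26. Nupr1, a stress-induced chromatin protein, stood at 0.0382, 0.305 and 0.0185 CPM at 0 h and 14.2, 13.7 and 14.7 CPM at 12 h (a log2 change of 7.05 ± 0.33, edgeR adjusted p = 4.15e-13), and Trib3 and Cth (3.33 ± 0.36) followed. The serine synthesis enzymes Psat1 (-1.23 ± 0.093) and Phgdh (-1.01 ± 0.13) fell. Eif2ak1, the heme-regulated kinase HRI, rose by 1.21 ± 0.10. Among 27 tested amino acid and nucleoside transporters 12 rose and 9 fell. Slc6a9, the glycine transporter, stood at 13.6, 11.98 and 12.4 CPM at 0 h and 219, 207 and 202 CPM at 12 h (a log2 change of 4.05 ± 0.084, edgeR adjusted p = 4.81e-18), without overlap. The lactate exporter Slc16a3 rose by 4.84 ± 0.63, the nucleoside importer Slc28a2 stood at 119, 122 and 163 CPM at 0 h and 4.34, 4.56 and 4.78 CPM at 12 h and fell (a log2 change of -4.89 ± 0.20, edgeR adjusted p = 5.75e-14), and the amino acid exchanger Slc7a8 fell by 4.29. Of 31 sterol and lipid genes 18 rose and 5 fell (10, 9 and 9 rose in the 3 TPM fits, and 3 fell at pseudocount 0.1), with Hmgcs1 (1.04 ± 0.16) and Srebf2 (1.03 ± 0.11) higher and Elovl5 (-1.204 ± 0.12) and Elovl6 (-1.14 ± 0.13) lower. Nr1h3 (1.79 ± 0.63) lost its call in 4 of 15 alternatives, including the omission of 0 h replicate 1 (1.66), 0 h replicate 2 (1.57) or 12 h replicate 2 (1.40).

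Chaperones fell more often than they rose. Of 29 tested heat shock genes 13 fell and 5 rose (8 with the replicate block), with a median of -0.19. Hsph1 (-1.05 ± 0.11), Hspd1 (-0.91 ± 0.13) and Bag3 (-0.76 ± 0.11) fell and Dnajb2 rose (3.05 ± 0.14). Of 29 oxidant defense genes 12 rose and 8 fell, with Prdx2, the abundant red cell peroxiredoxin, at 315, 320.5 and 326 TPM at 0 h and 1412, 1367 and 1400.5 TPM at 12 h (a log2 change of 2.16 ± 0.11, edgeR adjusted p = 1.2e-12), Txnrd2 at 1.498 ± 0.10, Gpx1 at 1.43 ± 0.088 and the glutathione transferase Gsta4 at -2.56 ± 0.14. Of 31 RNA-binding regulators 10 rose and 11 fell (6 and 6 in TPM at pseudocount 0.1), near the 25.3% and 27.6% of all tested genes. Cpeb4, a translational regulator induced by GATA1, stood at 19.8, 19.96 and 20.1 CPM at 0 h and 382, 414 and 464 CPM at 12 h (a log2 change of 4.39 ± 0.12, edgeR adjusted p = 1.4e-16), without overlap, and Mbnl1 (1.199 ± 0.17) and Cpeb3 (1.11 ± 0.14) rose. Besides Zfp36l2, Igf2bp3 (-2.08 ± 0.078) and Syncrip (-0.86 ± 0.10) fell. Of 31 DNA methylation and histone genes 9 rose and 10 fell (5 and 5 in TPM at pseudocount 0.1), also near those shares. Hdac7 (-1.99 ± 0.12), Dnmt3b (-1.88 ± 0.13) and Hdac4 (-1.397 ± 0.10) were lower and Hdac11 (2.601 ± 0.16) and Gadd45a higher.

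Of 29 FOXO, AMPK and mTOR genes 8 rose and 6 fell, near the 25.3% and 27.6% of all tested genes (5 rose in TPM at pseudocount 0.1 and 2 fell with either pseudocount), with the pseudokinases Trib2 (-3.57 ± 0.16) and Trib1 (-3.26 ± 0.70) lower and Gatsl3, an arginine sensor of mTOR, higher (3.52 ± 0.17). Of 21 BMP, TGF beta, Notch and Wnt genes 4 rose and 9 fell, with Bmp2k (2.81 ± 0.11) and the inhibitor Smad6 (2.54 ± 0.21) higher and Notch2 (-1.66 ± 0.11), Znrf3 (-1.18 ± 0.12) and Smad1 (-1.003 ± 0.15) lower.

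The largest single changes came from many functions. The 15 largest rises, taken from called genes whose mean count reached 100 and whose replicates did not overlap, held, besides genes already named, the apolipoprotein L genes Apol11b (7.86 ± 0.42) and Apol8 (7.19 ± 0.25), Ano3 (7.45 ± 0.35), a membrane scramblase family member, Hal (7.36 ± 0.46), which breaks down histidine, the myosin Myh7b (7.15 ± 0.74), the calpain Capn5 (6.800 ± 0.27) and Pga5 (6.74 ± 0.27), a pepsinogen. C7, a complement component, had 3 counts at 0 h and 1579 at 12 h, and Pdzk1ip1 3 and 785. The ratios were 532 (95% counting interval 182 to 2581) and 264 (90.1 to 1284). The largest falls held Tespa1 (707 counts against 2), Abcb5 (-7.59 ± 0.37), Rasd1 (-7.09 ± 0.22), Fa2h (-6.51 ± 0.32), Klhl6 (-6.49 ± 0.25), Trnp1 (-4.98 ± 0.19), Ptpre (-4.44 ± 0.35), Rap1gap2 (-4.42 ± 0.35) and the transporter Slco2b1 (-4.297 ± 0.49). Abcb5 stood at 25.03, 15.4 and 21.9 CPM at 0 h and 0.0855, 0.0440 and 0.198 CPM at 12 h and Rasd1 at 44.9, 31.1 and 38.6 CPM at 0 h and 0.308, 0.242 and 0.272 CPM at 12 h. In both the lowest 0 h library was far above the highest 12 h library.

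**Figure D5:**
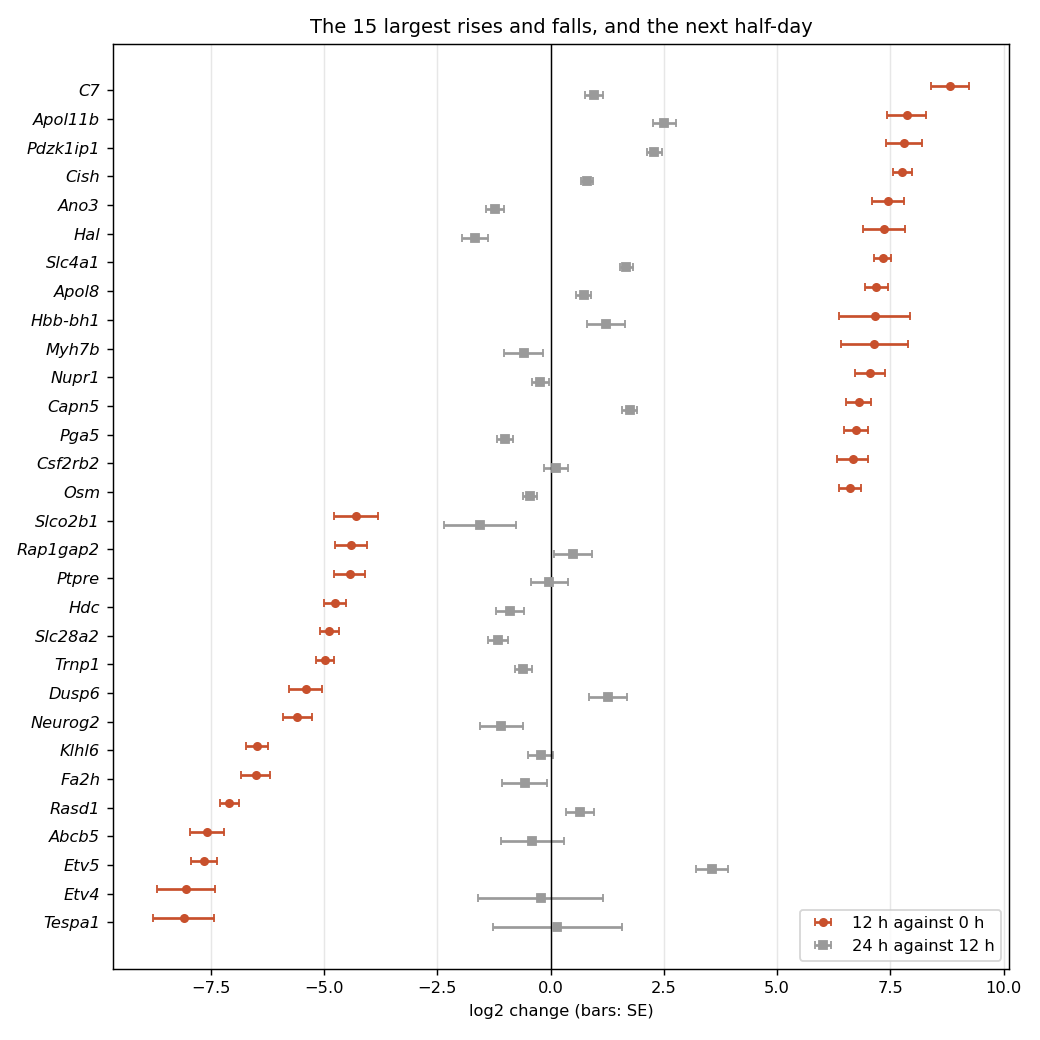
Log2 change with SE for the 15 largest rises and 15 largest falls at 12 h against 0 h (orange circles), and the change of the same genes at 24 h against 12 h (grey squares). The values of C7, Pdzk1ip1 and Tespa1, with 2 or 3 counts at 1 time, are fitted ones. Etv5 lies at -7.66 in the first half-day and at 3.57 in the second.

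Some genes had no count at one of the times. With 0 counts at 0 h and at least 10 in each 12 h library there were 18 genes. Stard13, which holds a lipid-binding START domain, had 233, 133 and 135 counts at 12 h. Against a floor of 3 counts summed over the 0 h libraries it was at least 169-fold higher. Of the next highest, Rnase1 was at least 94.3-fold, Clec4g at least 57.9-fold and Kirrel2 at least 55.2-fold higher. In the other direction there were 4 genes: Sult6b2 (at least 147-fold lower), Gm6882 (36.0), Pnmt (16.5) and Olfr325 (13.5, not called by DESeq2).

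Changes in share of transcripts were largest in abundant genes. Besides the 4 adult globins, the largest gains in mean TPM were those of Cd24a, the carbonic anhydrase Car2 (1016, 919 and 954 TPM at 0 h and 3464, 3639.7 and 4043 TPM at 12 h), Ftl1, Fth1, the peroxidase Gpx1 and Tfrc. Car2 rose by 1.96 ± 0.079, with no overlap. The largest losses were those of the mitochondrially encoded genes mt-Nd1, mt-Atp8, mt-Atp6, mt-Nd2, mt-Cytb, mt-Co2, mt-Nd4l and mt-Nd3 and of Npm1 and Ptma. Npm1, a nucleolar protein, stood at 2917, 3350.0 and 2826 TPM at 0 h and 1391, 1562 and 1248 TPM at 12 h (a log2 change of -1.0 ± 0.15, edgeR adjusted p = 1.3e-05). Of the mitochondrial genes mt-Atp8, mt-Atp6, mt-Co2 and mt-Nd4l were not called, but were called lower with the replicate block (-0.27, -0.14, -0.11 and -0.21), and mt-Nd1, mt-Nd2, mt-Cytb and Ptma were not called in at least 2 of the TPM fits. mt-Nd2 also lost its call without 0 h replicate 1, 0 h replicate 2 or 12 h replicate 2 (each -0.24). Of 2 common reference genes Actb changed by 0.024 ± 0.10 and Gapdh by 0.54 ± 0.27, neither called, and Gapdh was called higher in the 6 libraries alone, with or without the replicate block (0.58 in each).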

How the data were processed

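Strand-specific RNA sequencing of polyadenylated RNA gave 1 table of estimated counts and 1 of TPM (transcripts-per-million), with 22483 genes and 21 libraries each, both deposited by the authors. The estimated counts were deposited without scaling for depth, and 78.5% of them were whole numbers (tolerance 1e-06). TPM, computed by the authors, is scaled to length and library. Per the submitters' processing notes the tools were STAR 2.5.3a, kallisto and DESeq2 and the builds mm10 and GRCm38.p5. Which tool made which table is not given in the sources used here.

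Estimated counts were rounded and filtered (filterByExpr, minimum count 10), and library sizes were scaled by TMM. One edgeR 4.0.16 quasi-likelihood model of all 7 groups gave the contrasts (R 4.3.3), with Benjamini-Hochberg adjustment over 12360 genes and a 2-sided threshold of 0.05. The biological coefficient of variation was 11.6%. Values are normalized CPM or TPM per library in replicate order. A standard error is the size of the log2 change over the root of its F value. The pipeline was tested on simulated data. A gene without counts at one time was given 3 counts, summed over that group, as its floor, and intervals cover counting error only. Positions are from GENCODE M21 and start-site windows from RefSeq (GRCm38.p6), in which 9539 tested symbols were found.

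Members, lists, motifs and tests were chosen with earlier results of these data known. Of 939 listed genes 743 were tested. Named genes were the 15 largest rises and falls (called, mean count 100 or more, no overlap of replicates), the 3 largest rises and falls of each list, all members of lists or roles of at most 16 genes, the 10 largest gains and losses in TPM, the 5 highest of the genes at 0 counts at one time, and a fixed panel. Outside this rule, named after their values were seen, are Abcg2, Acvr2a, Add1, Add2, Art4, Cad, Ccnd2, Cd44, Cdk6, Cdkn1b, Cdkn2b, Cdkn2c, Egr1, Egr2, Eif2ak1, Epb42, Erfe, Fkbp5, Fosb, Foxo3, Hmox1, Ikzf1, Il1r1, Il4ra, Junb, Kdm1a, Kel, Klf9, Ldb1, Lmo2, Lyl1, Mpp1, Mt1, Nfe2l2, Per1, Podxl, Slc25a28, Slc25a38, Srebf2, Tcf12, Tcf3, Tfr2, Zbtb16, Zbtb7a and Zfpm1. Some genes chosen by the rule are not reported here.

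Alternatives were DESeq2's size factors, the DESeq2 1.42.0 Wald test, no filter, library sizes without globin and mitochondrial genes, the 6 libraries alone, the same with the replicate number as a block, limma 3.58.1 on log2(TPM + 1) where mean TPM reached 1, a pseudocount of 0.1 instead, all genes detected in 3 libraries instead, calls limited to 2-fold changes, and omission of each library. Libraries with the same number deviated together (correlations 0.498, 0.248 and 0.198 over 5725 genes with a mean of at least 20 CPM). As all are above 0.1, the numbers were fitted as a block in an alternative. The main fit held no block. Of the pairs with unlike numbers, 0 h replicate 2 and 12 h replicate 3 correlated at 0.241, and the others were below 0. No label says what the numbers stand for.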

Additional observations from a re-analysis of the deposited data

How the results depend on the processing

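Both counts of calls (3123 higher, 3416 lower) stayed within 1.5 times under most alternatives. The 6 libraries alone gave 3863 and 3910, and with the replicate number as a block 4024 and 4089. The block ended no call of a named gene and added 22. Those not given beside the genes are Cma1 (0.30), Gzmb (-1.17), Ikzf2 (0.23), Mlx (0.17), Mst1r (0.29), Ncoa1 (0.22) and Sh2b1 (-0.14). Requiring a fold of at least 2 left 1231 and 962. In limma on TPM 1988 genes were higher with a pseudocount of 1, and 1596 higher and 2128 lower with a pseudocount of 0.1. The cause was not tested. Leaving out 1 library at a time gave 2786 to 2889 higher and 3014 to 3139 lower. Of 308 called named genes 270 kept their call in all 15 alternatives besides the fold, 38 lost it in at least 1, and none changed direction. Of 660 list counts recomputed for lists with at least 5 calls 24 moved by more than 1.5 times. The median log2 change of tested genes was -0.0071, and -0.089 in TPM. Depth limits genes below about 10 counts.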

Other observations

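The apolipoprotein L genes, a cluster of lipid-binding proteins with few described functions in mouse, had the highest median change of the 30 lists, taken over members that passed the count filter. Apol7e, Apol10a, Apol10b and Apol11a had 2 or fewer counts summed over the 0 h libraries. They passed the filter through other groups alone, which favors a high median. Of 10 tested members 5 were called higher and none lower, read against 25.3% of all tested genes, and the median of their log2 changes was 4.02 (3.83 when Apol11a, without counts at 0 h, enters at its bound). Apol8 stood at 0.248, 0.381 and 0.444 CPM at 0 h and 51.4, 53.9 and 52.6 CPM at 12 h (a log2 change of 7.19 ± 0.25, edgeR adjusted p = 4.01e-15) and Apol11b at 0.153, 0.127 and 0.204 CPM at 0 h and 49.96, 28.5 and 38.3 CPM at 12 h (a log2 change of 7.86 ± 0.42, edgeR adjusted p = 3.43e-12). In both genes every 12 h library was above every 0 h library. Apol10a had 1 count before the switch and was 599.98 times as high after it (95% counting interval 107 to 23737). Apol11a had 0, which makes it at least 25.6-fold higher. At 24 h Apol11b was 2.51 ± 0.26 and Apol8 0.73 ± 0.16 above 12 h. Apol6 (0.30 ± 0.55) and Apol7b (-0.31 ± 1.06) were not called. The genes are similar in sequence, and reads may have been divided among them.

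Mast cell markers moved in both directions. Of 8 tested markers 3 rose and 3 fell, and their sum went from 41.7 to 50.6 CPM at 0 h to 93.7 to 138.8 CPM at 12 h. The rise in the sum was carried by Mcpt2, a mast cell protease, at 7.01, 1.52 and 2.94 CPM at 0 h and 128, 86.2 and 105 CPM at 12 h (a log2 change of 4.77 ± 0.33, edgeR adjusted p = 1.29e-10). Hdc, which makes histamine, stood at 20.2, 26.5 and 27.9 CPM at 0 h and 0.872, 1.08 and 0.768 CPM at 12 h (a log2 change of -4.77 ± 0.24, edgeR adjusted p = 1.22e-12), and the IgE receptor subunit Ms4a2 (-3.05 ± 0.27) and the carboxypeptidase Cpa3 (-1.703 ± 0.27) also fell. Fcer1a, another subunit of that receptor, had 0 counts at 0 h and 43 at 12 h, which makes it at least 14.5-fold higher, and the protease Mcpt4 rose (3.32 ± 0.47) from 6 counts to 65. Tpsab1, Mcpt8 and Prss34, further mast cell or basophil proteases, had 0 counts at both times. Gp1ba (-3.01 ± 0.29) and Gp9 (4.41 ± 0.22), both of the platelet glycoprotein complex, moved in opposite directions, and Pf4 and Ppbp had 0 counts at both times.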
